A study of Homo sapiens with 6 samples.

Results

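The Sprouty and SPRED feedback inhibitors examined here are SPRY1, SPRY2, SPRY4, SPRED1 and SPRED2, 5 of 19775 genes that had a probe set naming 1 gene on Affymetrix arrays of A375 cells, which come from a human melanoma with a mutant, active BRAF kinase. By CRISPR these cells had lost the gene for eIF4B, which assists the helicase eIF4A in starting translation. The knockout cells were then transduced by lentivirus with LacZ as a negative control, giving the KO/LacZ or knockout line, or with wild-type eIF4B, giving the KO/eIF4B or rescued line. Each line was treated with 10 µM vemurafenib, an inhibitor of mutant BRAF, for 6 h or 18 h, or with the vehicle DMSO, and each of the 6 combinations was measured on 1 array. All 6 groups thus carry the knockout and a lentiviral insert, and no unedited A375 cells are among them. Whether each line is a single clone, and how long the vehicle cultures ran, is not given in the sources used here, so drug and time in culture cannot be told apart. The members were taken by gene symbol and have 10 probe sets: 1 each for SPRY2 and SPRY4, 2 for SPRY1, and 3 each for SPRED1 and SPRED2. The brightest probe set by its mean on the 6 arrays stood for its gene, and all 5 genes passed the filter of a mean of at least 5 log2 units that left 13506 genes for testing.

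Sprouty proteins are inducible brakes on growth factor signalling. They are made in response to ERK activity, and they act between receptor tyrosine kinases and RAF to lower it, in part by binding the adaptor GRB2. Sprouty proteins also bind the ubiquitin ligase CBL. SPRED proteins share the cysteine-rich Sprouty domain and bring the RAS inactivator neurofibromin (NF1) to the membrane. In BRAF-mutant melanoma, where the kinase works downstream of most of these brakes, transcripts of the family are widely read as a measure of ERK output.

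Promoter windows of the members were set beside each other because 4 of the 5 transcripts, by their brightest probe sets, moved together under vemurafenib. RefSeq (GRCh38.p14) gives 9 windows, each from 250 bases before to 50 bases after a transcript start: 2 for SPRY1, 3 for SPRY2, 1 each for SPRY4 and SPRED1, and 2 for SPRED2. The bases before the outermost start are shown 5′ to 3′ for SPRY2, the transcript with the deepest fall, for SPRED1 and for SPRY1, with capitals on every letter of a searched motif. They cover chr13:80341127-80341376 on the minus strand for SPRY2, chr15:38252586-38252835 on the plus strand for SPRED1 and chr4:123396545-123396794 on the plus strand for SPRY1.
SPRY2: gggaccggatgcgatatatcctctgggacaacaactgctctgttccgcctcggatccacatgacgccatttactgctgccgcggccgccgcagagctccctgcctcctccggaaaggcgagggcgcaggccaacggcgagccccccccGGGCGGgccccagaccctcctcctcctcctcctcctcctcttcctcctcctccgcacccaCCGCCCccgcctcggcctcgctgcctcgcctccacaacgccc
SPRED1: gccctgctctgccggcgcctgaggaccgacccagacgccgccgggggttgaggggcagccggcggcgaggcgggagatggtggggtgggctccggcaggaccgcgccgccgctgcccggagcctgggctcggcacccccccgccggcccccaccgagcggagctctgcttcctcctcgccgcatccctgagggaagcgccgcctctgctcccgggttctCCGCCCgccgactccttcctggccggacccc
SPRY1: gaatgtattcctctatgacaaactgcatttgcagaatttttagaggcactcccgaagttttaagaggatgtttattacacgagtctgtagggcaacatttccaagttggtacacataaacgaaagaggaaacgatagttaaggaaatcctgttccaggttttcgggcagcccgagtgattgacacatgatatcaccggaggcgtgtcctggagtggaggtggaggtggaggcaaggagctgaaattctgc

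The GC box (GGGCGG, either strand) was in 6 of the 9 windows and in at least 1 window of each of the 5 genes, where 45.0% of 35116 RefSeq windows of the same length hold it. Motifs of factors through which ERK is known to act on promoters were each in 0 or 1 of the 9 windows, counts too small to set against the shares of all windows. The ETS core (CCGGAAG) was in 1 window, against 10.3% of all windows, a shorter ETS motif (GGAAGT) in 1 against 22.8%, the AP-1 motif (TGANTCA) in 1 against 7.71%, and the letters TGACGT of CREB-type sites in 1 against 7.98%. The E-box CACGTG and the CArG box of serum response factor were in 0 of the 9, against 7.26% and 1.29%. Both strands were searched, and no site of one motif overlapped a site of another in the members' windows. Each of the 5 ETS, AP-1 and TGACGT matches is shown in 30 bases on the gene's strand with the motif in capitals. They lie at chr4:123398307-123398336 (SPRY1, second start), chr13:80340097-80340126 (SPRY2, second start), chr2:65432553-65432582 (SPRED2, first start), and chr2:65366767-65366796 and chr2:65366729-65366758 (SPRED2, second start).
SPRY1 ETS core: tgccctccgcagCCGGAAGggggccgcggg
SPRY2 ETS: cgggggcaggagACTTCCagggtgagaaaa
SPRED2 TGACGT: gccgctgggaagACGTCAtcgcttccgccc
SPRED2 AP-1 near the start: ctaaccctcggaTGACTCAtccggtacaat
SPRED2 AP-1 downstream: tttgtcaaggagacTGAATCAtatatgggg

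A match is a description of these letters, and sites outside these windows were not searched.

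The arrays had medians between 5.20 and 5.22 log2 units, and the number of arrays limits the precision. The targeted gene, EIF4B, was 3.20-fold lower in the KO/LacZ than in the KO/eIF4B line by its highest probe set (log2 difference -1.68, limma Benjamini-Hochberg adjusted p = 0.00558), while its other 2 probe sets differed by 0.19 and 0.17. That is a check on the added eIF4B and says nothing of the protein. Of 8 melanoma and melanocyte markers in the table, 6 had a mean of at least 5. SOX10 was at 9.86 to 10.57, MITF at 8.10 to 9.97 and S100B at 7.42 to 8.44. S100A1 was at 5.51 to 6.09, PMEL at 5.54 to 5.81 and TYR at 5.44 to 5.72, while MLANA was at 4.76 to 4.99 and TYRP1 at 3.43 to 3.80. Among markers of other cells, 1 of 4 epithelial, 2 of 3 blood and 2 of 3 endothelial markers in the table had a mean of at least 5. EPCAM, CDH1, PTPRC and CDH5 lay between 2.32 and 3.24 on every array, KRT19 at 3.94 to 4.38 and VWF at 4.84 to 5.34. KRT5 was at 5.60 to 5.88, CD3E at 5.68 to 5.85, LYZ at 6.06 to 7.15 and PECAM1 at 5.97 to 6.26. The mean of the blood markers was 5.15 to 5.35 under vehicle, 5.15 to 5.33 at 6 h and 4.91 to 5.0 at 18 h. The mean of 4 fibroblast markers, 3 of which had a mean of at least 5, was 6.14 to 6.46 under vehicle. It was 6.69 to 6.79 at 6 h and 7.29 to 7.58 at 18 h. Over all arrays LUM ranged from 6.39 to 9.56 and DCN from 5.78 to 7.84. COL1A1 stayed at 7.87 to 8.0 and COL1A2 at 4.52 to 4.94, so the set did not rise as a whole. The part of these markers in the results below was not tested.

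The first comparison asks what vemurafenib did to the family in both lines. By the main probe set of each gene, SPRY2, SPRY4, SPRED2 and SPRED1 fell at both times. That was 4 of 5 members at 6 h and 4 of 5 at 18 h, where 8.82% and 23.3% of all 13506 genes were called lower. The test is an additive limma model of line and treatment over all 6 arrays, with Benjamini-Hochberg adjustment over all genes and a threshold of 0.05. Its error combines each gene's disagreement between the lines with a spread that limma estimates from all genes. The 6 h and 18 h comparisons share the vehicle arrays. In RNA from bulk cultures, fewer cells of a type and less RNA per cell cannot be told apart.

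SPRY2 had the deepest fall. Its levels under vehicle, at 6 h and at 18 h were 10.70, 6.93 and 6.25 log2 units in the KO/LacZ line, and 10.42, 6.85 and 6.00 in the KO/eIF4B line. All 4 vemurafenib arrays lay far below both vehicle arrays, and both 18 h arrays lay below both 6 h arrays. At 6 h SPRY2 was 12.7-fold lower than under vehicle (95% interval 11.2 to 14.5, log2 difference -3.67, SE 0.07, limma adjusted p = 0.000166), and at 18 h 21.7-fold lower (19.1 to 24.7, log2 difference -4.44, limma adjusted p = 6.77e-05). Those were the changes ranked 5 and 6 from the lowest among the 13506 genes. The fall went on after 6 h. At 18 h SPRY2 was a further 1.70-fold below its 6 h level (log2 difference -0.77, 95% interval -0.95 to -0.58, limma adjusted p = 0.00349), by -0.69 in the KO/LacZ line and -0.85 in the KO/eIF4B line. It was the 1 member of 5 called between the times, where 14.9% of genes were called lower and 19.0% higher.

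SPRY4, a Sprouty protein that also restrains RAF activation, fell at both times. It read 7.92, 5.83 and 5.65 log2 units under vehicle, at 6 h and at 18 h in the KO/LacZ line, and 8.51, 5.82 and 5.84 in the KO/eIF4B line. The vehicle arrays were high and the other 4 arrays low, without overlap. Of the low arrays, KO/eIF4B at 18 h, KO/LacZ at 6 h and KO/eIF4B at 6 h lay in that order, highest first, with gaps smaller than the residual SD of 0.15. SPRY4 was 5.25-fold lower at 6 h than under vehicle (95% interval 4.06 to 6.80, log2 difference -2.39, SE 0.15, limma adjusted p = 0.00135) and 5.53-fold lower at 18 h (4.28 to 7.16, log2 difference -2.47, limma adjusted p = 0.000359). The 18 h level differed from the 6 h level by -0.07 log2 units (95% interval -0.45 to 0.30, limma adjusted p = 0.721). The 4 low arrays read 5.65 to 5.84, where the epithelial marker KRT5 read 5.60 to 5.88 and the blood marker CD3E 5.68 to 5.85. Whether such levels are background was not tested. If they are, the folds of SPRY4 are too small and a further fall after 6 h could not be seen.

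SPRED2, a SPRED protein that blocks RAS-to-RAF signalling, fell at both times too, by less. Its main probe set read 9.04, 7.0 and 7.22 log2 units under vehicle, at 6 h and at 18 h in the KO/LacZ line, and 9.13, 7.43 and 7.49 in the KO/eIF4B line. The vehicle arrays differed by less than the residual SD of 0.10, and all 4 vemurafenib arrays were lower. SPRED2 was 3.65-fold lower at 6 h than under vehicle (95% interval 3.09 to 4.33, log2 difference -1.87, SE 0.10, limma adjusted p = 0.000874) and 3.31-fold lower at 18 h (2.80 to 3.93, log2 difference -1.73, limma adjusted p = 0.000325). Between 18 h and 6 h it differed by 0.14 (95% interval -0.10 to 0.38, limma adjusted p = 0.307).

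SPRED1, whose inherited loss causes Legius syndrome, had the smallest change of the 4 that fell. It read 9.62, 8.12 and 8.65 log2 units under vehicle, at 6 h and at 18 h in the KO/LacZ line, and 9.96, 8.46 and 8.50 in the KO/eIF4B line. The vehicle arrays again stood above the other 4, and in the KO/LacZ line the 18 h array stood above the 6 h array. SPRED1 was 2.84-fold lower at 6 h than under vehicle (95% interval 2.23 to 3.63, log2 difference -1.51, SE 0.14, limma adjusted p = 0.00432) and 2.33-fold lower at 18 h (1.82 to 2.97, log2 difference -1.22, limma adjusted p = 0.00168). The difference between 18 h and 6 h was 0.54 in the KO/LacZ line and 0.04 in the KO/eIF4B line, together 0.29 (95% interval -0.06 to 0.64), a value short of the threshold (limma adjusted p = 0.167). With 1 array left at 18 h, assumed to vary like the other groups, it was 0.54 (limma adjusted p = 0.0151) without the KO/eIF4B 18 h array and 0.0402 (limma adjusted p = 0.718) without the KO/LacZ 18 h array.

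SPRY1 gave a result that depended on the probe set. Its main probe set, 230212_at, read 5.68, 5.43 and 5.42 log2 units under vehicle, at 6 h and at 18 h in the KO/LacZ line, and 5.48, 5.17 and 5.40 in the KO/eIF4B line. That is near the array medians of 5.20 to 5.22, and 53.7% of all probe sets had a lower mean. Whether this probe set reads above background was not tested, so its small differences may not show how SPRY1 RNA changed. The vemurafenib arrays lay below both vehicle arrays by little, the KO/eIF4B vehicle array being within the residual SD of 0.08 of the highest of them. The log2 difference from vehicle was -0.28 at 6 h (SE 0.08, 95% interval -0.48 to -0.08, limma adjusted p = 0.0745) and -0.17 at 18 h (95% interval -0.37 to 0.03, limma adjusted p = 0.136), neither past the threshold. The limma adjusted p at 6 h was 0.0433 when either 18 h array was left out. With 1 array left at 18 h, assumed to vary like the other groups, the difference at 18 h was -0.27 (limma adjusted p = 0.0431) without the KO/eIF4B 18 h array and -0.0635 (limma adjusted p = 0.529) without the KO/LacZ 18 h array.

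By its second probe set, 212558_at, SPRY1 fell. It read 6.28, 4.10 and 4.12 log2 units under vehicle, at 6 h and at 18 h in the KO/LacZ line, and 5.97, 4.48 and 4.28 in the KO/eIF4B line. Both vehicle arrays were high and all 4 vemurafenib arrays low. In a limma fit of all 54613 probe sets that are not array controls, its log2 difference was -1.84 at 6 h (3.58-fold lower, SE 0.16, 95% interval -2.25 to -1.44, adjusted p = 0.00482) and -1.92 at 18 h (3.80-fold lower, 95% interval -2.33 to -1.52, adjusted p = 0.00108). In that fit 2.55% of probe sets were called lower at 6 h and 11.7% at 18 h. In the same fit 230212_at differed by -0.28 (95% interval -0.51 to -0.05) and -0.17 (95% interval -0.40 to 0.06), intervals that do not meet those of 212558_at. 212558_at had a mean of 4.87, under the filter, and so did not stand for SPRY1 by the rule of the highest mean. Under vehicle it was the brighter of the 2, at 6.28 and 5.97 against 5.68 and 5.48. Its low values on the vemurafenib arrays brought its mean below that of 230212_at. Counts and ranks of SPRY1 among the members therefore hold for 230212_at only. The position of the 2 probe sets in the SPRY1 transcripts was not analysed here.

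**Figure D1:**
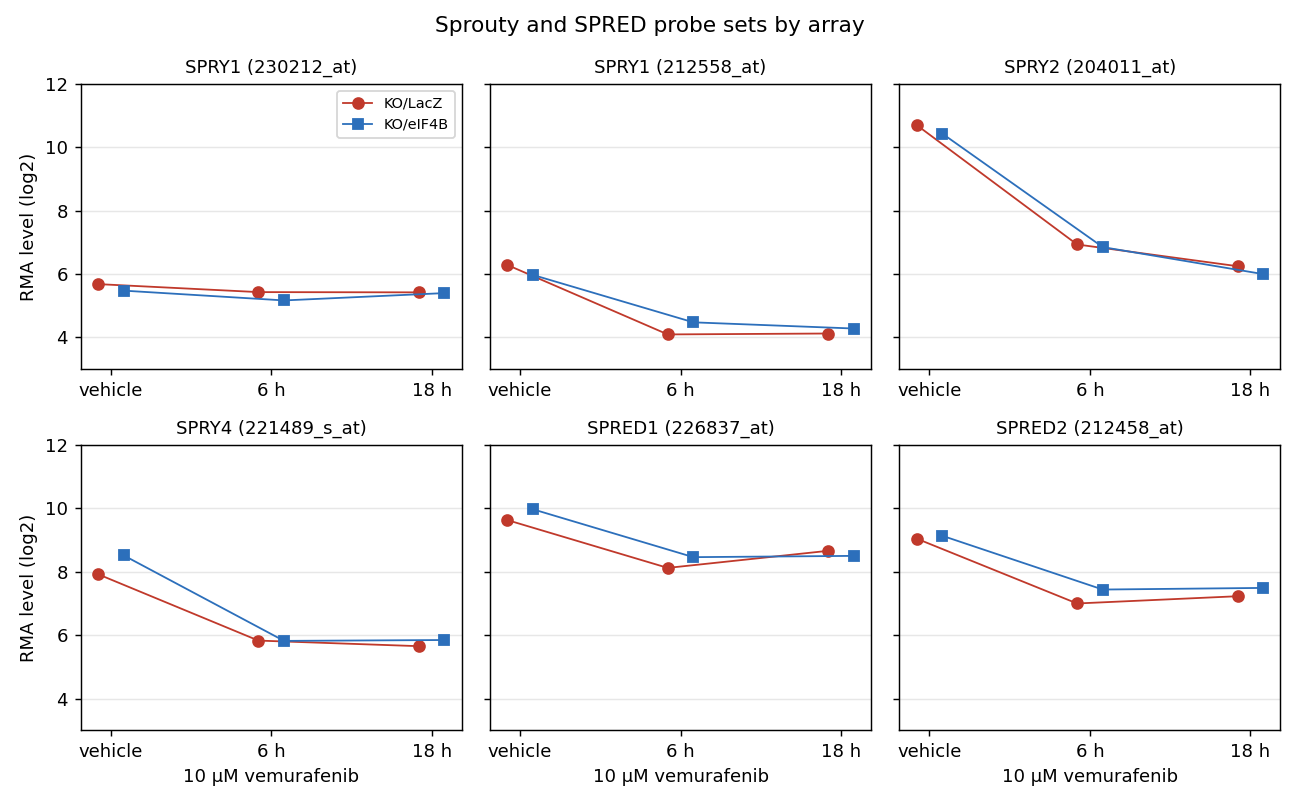
Level of each member's main probe set, and of the second SPRY1 probe set, on the 6 arrays (y axis, RMA level in log2 units) under vehicle and after 6 h and 18 h of 10 µM vemurafenib (x axis), with 1 point per array, red circles for KO/LacZ and blue squares for KO/eIF4B. SPRY2 lies between 6.00 and 6.93 with vemurafenib and at 10.42 and 10.70 under vehicle, while SPRY1 stays between 5.17 and 5.68 on 230212_at and falls on 212558_at.

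The other probe sets of SPRED1 and SPRED2 were set beside the main ones. They share a target gene and are no replicates of it. For SPRED1, 235074_at read 8.17, 6.70 and 7.15 log2 units under vehicle, at 6 h and at 18 h in the KO/LacZ line, and 8.0, 6.68 and 6.95 in the KO/eIF4B line. The third SPRED1 probe set, 244439_at, read 7.44, 5.77 and 6.03 in the KO/LacZ line, and 7.50, 5.90 and 5.92 in the KO/eIF4B line. On both, every vemurafenib array was below every vehicle array. Their log2 differences at 6 h were -1.39 and -1.64 (limma over all probe sets, adjusted p = 0.00139 and 0.00102), and at 18 h -1.04 and -1.50 (adjusted p = 0.00102 and 0.000441). At 18 h both were above 6 h, by 0.36 (limma over all probe sets, adjusted p = 0.0536) and 0.14 (adjusted p = 0.395), so all 3 SPRED1 probe sets had a positive value in both lines and none passed the threshold.

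The other SPRED2 probe sets, 212466_at and 214026_s_at, were dim, with means of 3.73 and 3.20, and 25.3% and 17.5% of all probe sets had a lower mean. They differed from vehicle by -0.36 and -0.34 log2 units at 6 h (limma over all probe sets, adjusted p = 0.158 and 0.357) and by -0.32 and -0.46 at 18 h (adjusted p = 0.0879 and 0.10). None passed the threshold, so the SPRED2 call rests on 212458_at.

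**Figure D2:**
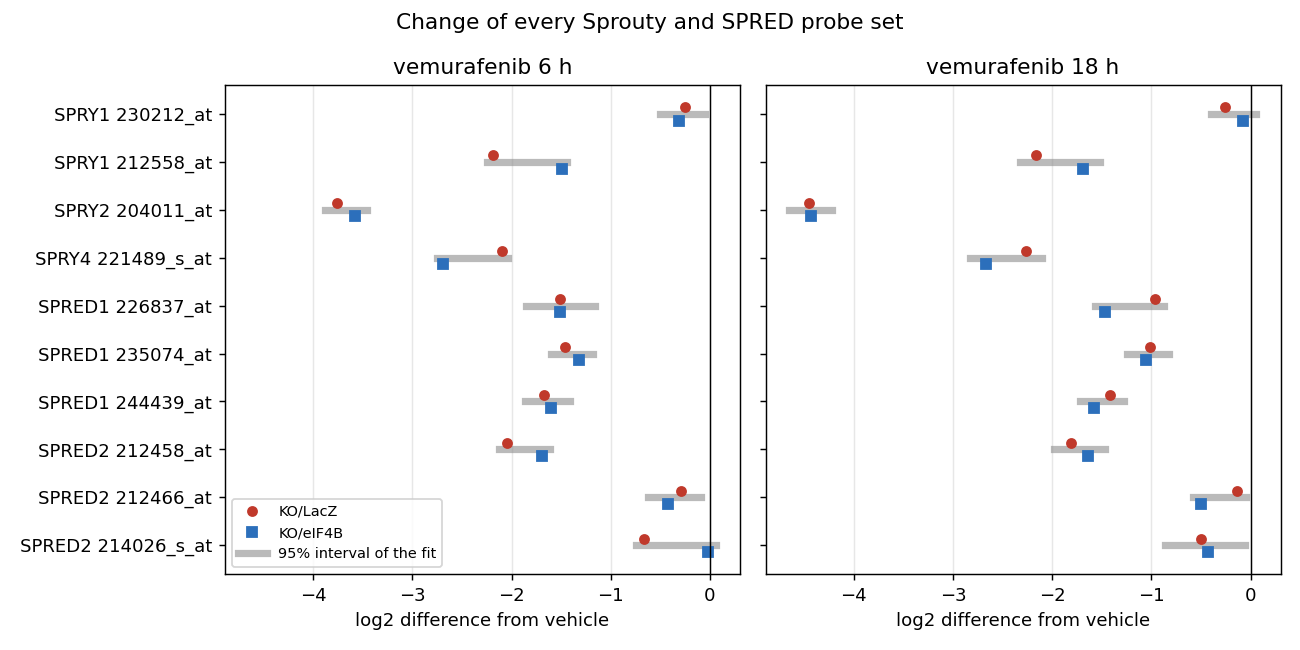
Log2 difference from vehicle (x axis) of all 10 probe sets of the family (rows) at 6 h on the left and at 18 h on the right. Red circles are the KO/LacZ line, blue squares the KO/eIF4B line, and grey bars the 95% intervals of the limma fit over all probe sets. The SPRY2 intervals lie lowest, and the intervals of the 2 SPRY1 probe sets do not meet.

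The size of the falls was read against all tested genes. All 5 members, SPRY1 included, had every one of the 4 vemurafenib arrays below both vehicle arrays, as did 18.9% of the 13506 genes. A fall of at least 1 log2 unit (2-fold) in each line was seen at 6 h in 4 of 5 members, against 1.29% of genes. At 18 h it was seen in 3 of 5 against 2.63%, as SPRED1 differed by -0.97 in the KO/LacZ line and by -1.47 in the KO/eIF4B line. The median of the 5 log2 differences was -1.87 at 6 h and -1.73 at 18 h, where the median of all genes was 0.03 and 0.01. Counting from the lowest change, SPRY4 was ranked 26 at 6 h and 46 at 18 h, SPRED2 52 and 112, SPRED1 83 and 265, and SPRY1 on its main probe set 1411 and 3884.

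**Figure D3:**
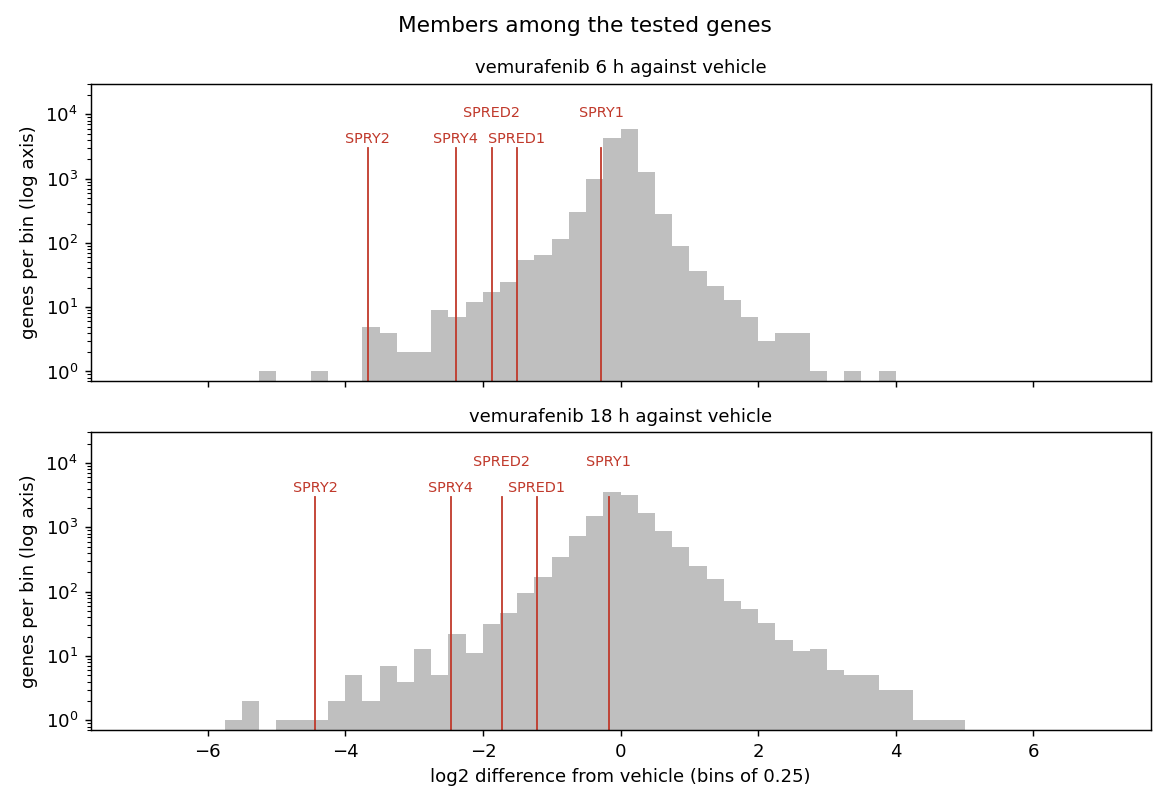
Number of the 13506 tested genes (y axis, log axis) by log2 difference from vehicle (x axis, bins of 0.25) at 6 h above and 18 h below, with a red line for each member. SPRY2 lies in the sparse left tail at -3.67 and -4.44, SPRY4, SPRED2 and SPRED1 lie between -2.47 and -1.22, and SPRY1 on its main probe set lies in the central bulk.

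The second comparison asks whether the family differed between the KO/LacZ and KO/eIF4B lines. No call was made for any of the 5 members, where 2.50% of all genes were called. KO/LacZ minus KO/eIF4B was 0.20 for SPRY2 (95% interval 0.05 to 0.35, unadjusted p = 0.019 and adjusted p = 0.142 in limma), with 0.27, 0.08 and 0.25 under vehicle, at 6 h and at 18 h. For SPRED2 it was -0.26 (95% interval -0.46 to -0.06, unadjusted p = 0.0188 and adjusted p = 0.141 in limma), with -0.09, -0.44 and -0.26. SPRY1 differed by 0.16 (95% interval -0.0014 to 0.33), with 0.21, 0.26 and 0.02. These 3 members kept 1 sign in all 3 treatments, as did 47.0% of genes. SPRY4 differed by -0.26 (95% interval -0.56 to 0.04) and SPRED1 by -0.17 (95% interval -0.46 to 0.12). For these the sign was not the same in every treatment: SPRY4 gave -0.59, 0.01 and -0.19, and SPRED1 -0.34, -0.34 and 0.16. The intervals allow differences of up to 0.56 log2 units, smaller than the falls of SPRY2, SPRY4, SPRED2 and SPRED1 under vemurafenib. For SPRY1 on its main probe set the interval reaches 0.33, where its differences from vehicle were -0.28 and -0.17.

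The third comparison asks whether the lines differed in their response to the drug. At a single time this is a value with no test, since 1 array stands for each combination. No member differed by 1 log2 unit or more, a size met by 0.148% of genes at 6 h and 0.422% at 18 h. SPRY4 differed from vehicle by -2.09 in the KO/LacZ line and -2.70 in the KO/eIF4B line at 6 h, and by -2.27 and -2.67 at 18 h, so the change was smaller in KO/LacZ by 0.60 and 0.40. The vehicle arrays of SPRY4 differed by -0.59, whereas the 6 h arrays differed by 0.01. SPRED1 differed from vehicle by -1.51 in both lines at 6 h, and at 18 h its change was smaller in KO/LacZ by 0.50. Its other probe sets gave 0.04 and 0.16 for that difference. SPRY2 gave -0.19 and -0.02 and SPRED2 gave -0.35 and -0.17.

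A term for the difference in response shared by 6 h and 18 h leaves 1 residual degree of freedom. It was 0.50 for SPRY4 (SE 0.16, 95% interval 0.10 to 0.90, unadjusted p = 0.0233 and adjusted p = 1 in limma), 0.25 for SPRED1 (95% interval -0.33 to 0.83), -0.06 for SPRY1 (-0.48 to 0.36), -0.10 for SPRY2 (-0.49 to 0.28) and -0.26 for SPRED2 (-0.65 to 0.13). By limma 0 of 13506 genes passed the threshold for this term (0% called), 302 had an unadjusted p under 0.05, and the smallest adjusted p was 0.811. The second SPRY1 probe set gave -0.58 (SE 0.19, unadjusted p = 0.0172 and adjusted p = 1 in limma over all probe sets), with -2.19 in the KO/LacZ line and -1.49 in the KO/eIF4B line at 6 h.

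The family was then placed among other genes of the same pathway. ERK output genes, a list of 20 transcription factors and targets outside the family, were lower in 19 cases at 6 h and in 19 at 18 h. None was higher, and the medians were -2.29 and -2.63. This list, like the others, was chosen with earlier results of these data known, so its count is a description and no independent support. Of all genes, 8.82% were called lower at 6 h and 23.3% at 18 h. The phosphatase DUSP6 changed by -5.19 and -5.31, the ETS factor ETV5 by -3.49 and -4.04, and the small MAF factor MAFF by -3.66 and -3.89. SPHK1, a lipid kinase, was the 1 gene not called, at -0.24 and 0.17. Beside them, the median of the 5 family members was -1.87 and -1.73.

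Other inhibitors of receptor, RAS and ERK signalling were more mixed. DUSP4 and DUSP6 are both on this list and on that of the ERK output genes. Of 28 listed 20 were tested, and 11 fell and 2 rose at 6 h, 12 and 3 at 18 h, with medians of -0.48 and -0.37. Over all genes 8.82% were called lower and 7.34% higher at 6 h, and 23.3% and 28.1% at 18 h. Besides DUSP6, the phosphatases DUSP4 and DUSP5 fell, with changes for DUSP4 of -2.71 and -2.80 log2 units at the 2 times and for DUSP5 of -2.59 and -2.49. The ubiquitin ligase CBLB, which targets activated receptors, rose by 1.50 at 6 h and by 2.32 at 18 h. RASAL2, a RAS inactivator, rose by 0.39 and 0.42, and PEBP1, which binds RAF, differed by 0.19 at 6 h and rose by 0.36 at 18 h.

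Genes for proteins that Sprouty and SPRED bind or that regulate them had few calls at 6 h, when 7.34% of all genes were called higher and 8.82% lower. Of 28 listed 21 were tested. At 6 h 1 rose, SOS1, the RAS activator, by 0.46, and none fell. At 18 h 5 rose and 6 fell, near the shares of all genes (28.1% higher and 23.3% lower), with medians of -0.01 and 0.01 at the 2 times. SOS2, a second RAS activator, rose by 0.83 at 18 h, the kinase PRKCD by 0.75 and the ERK-activated kinase MKNK1 by 0.69, while HRAS fell by 0.45, the phosphatase subunit PPP2CA by 0.39 and the ubiquitin ligase SIAH2 by 0.31. The main NF1 probe set, for neurofibromin, had a mean of 3.72, below the filter.

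Growth factor receptors and their ligands went both ways. Of 24 listed 20 were tested, and 5 rose and 3 fell at 6 h, 7 and 8 at 18 h, with medians of 0.03 and -0.13. Of all genes, 7.34% were called higher and 8.82% lower at 6 h, and 28.1% and 23.3% at 18 h. At 18 h the KIT ligand KITLG rose by 2.57, FGFR2 by 2.06 and FGFR3 by 1.49, while the nerve growth factor receptor NGFR fell by 0.93, the hepatocyte growth factor receptor MET by 0.77 and the ligand VEGFC by 0.61. At 6 h KITLG rose by 1.21, NGFR fell by 0.62, MET by 0.58 and VEGFC by 1.0, and FGFR2 and FGFR3 were at 0.77 and 0.59 with limma adjusted p-values of 0.0546 and 0.0534.

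Between the lines, 5 genes of the 4 lists were called, with 20 or 21 genes tested in each list. They are named here after their values were seen. Of all genes, 2.50% were called between the lines. That count, 337 genes, ranged from 1 to 1196 over 7 other settings of the processing. In KO/LacZ relative to KO/eIF4B, the RAS inactivator RASA3 was higher by 0.37 (limma adjusted p = 0.0433) and VEGFC by 0.47 (adjusted p = 0.0478). NGFR differed by -0.69 (limma adjusted p = 0.0276), the cell cycle activator CCND1 by -0.47 (adjusted p = 0.0342) and the AP-1 subunit FOSL1 by -0.39 (adjusted p = 0.0494). No gene for a binding partner or regulator was called.

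**Figure D4:**
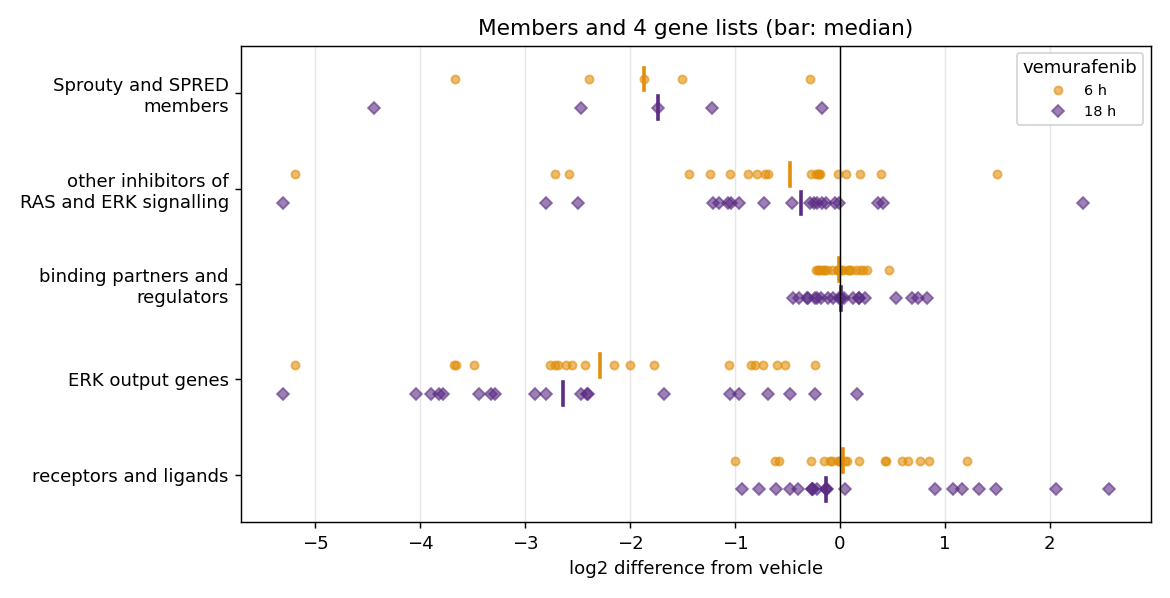
Log2 difference from vehicle (x axis) of the 5 members and of the tested genes of 4 lists (rows), with orange circles for 6 h, purple diamonds for 18 h and bars at the medians. The medians of the members, -1.87 and -1.73, lie between those of the ERK output genes and those of the other inhibitors.

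The genes whose profile over the 6 arrays came closest to that of each member were found by the root mean square difference of centred log2 values. For SPRY2 these were ETV5 (0.23 log2 units, Pearson r 0.995), IER3 (0.31, r 0.99) and the chemokine CXCL8 (0.33, r 0.99). For SPRY4 they were the glucose transporter SLC2A3 (0.15, r 0.994), SHROOM2 (0.16, r 0.991) and PHLDA2 (0.18, r 0.991). For SPRED1 they were ERRFI1, a feedback inhibitor of EGFR (0.08, r 0.994), the sulfate transporter SLC26A2 (0.09, r 0.997) and PAG1 (0.10, r 0.989), and ERRFI1 changed by -1.44 and -1.04 at the 2 times, against -1.51 and -1.22 for SPRED1. For SPRED2 they were the kinase WNK4 (0.13, r 0.988), FAM43A (0.15, r 0.988) and KLF2 (0.16, r 0.983). These are descriptions over 6 arrays that share their 3 treatments, so genes that change with the drug correlate with each other. Within the family the closest pair was SPRED1 and SPRED2, at 0.26 log2 units, followed by SPRY4 and SPRED2 at 0.37. The profile of SPRY1 on its main probe set spanned 0.51 log2 units and was not matched.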

How the data were processed

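RNA of the 6 samples was hybridised as biotin-labelled cRNA to Affymetrix arrays, per the labels' protocols. The authors deposited linear RMA intensities between 3.01 and 19000. The submitters' processing notes name RMA and affy without versions. Since RMA normalizes the arrays to each other, a change in total mRNA cannot be seen. No label says that cultures were separate, and p-values then measure only the spread between these samples.

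The planned test assumed log2 values, so log2 of the deposited intensities was taken first. Of 54675 probe sets, 62 are array controls, 41091 name 1 gene, 1801 name several and 11721 are unnamed here; RefSeq (GRCh38.p14) symbols were matched by gene identifier. Models were fitted with limma 3.58.1 in R 4.3.3 (lmFit, eBayes; 2 residual degrees of freedom and 3.19 from the prior) and tested on simulated data. A separate fit took every probe set. The members, lists and motifs were chosen with earlier results of these data known. Named genes were the members, EIF4B, for each list the 3 highest and 3 lowest called at 18 h, and the 3 closest profiles per member that spanned at least 1 log2 unit. SOS1, SPHK1, NF1, RASA3, CCND1 and FOSL1 were added to complete counts. List genes without a probe set naming 1 gene were not analysed here.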

Additional observations from a re-analysis of the deposited data

How the results depend on the processing

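Arrays could not be paired by replicate because the labels give no replicate numbers. The line is a term of the reported fit, so each drug difference is already taken within the lines. The falls of SPRY2, SPRY4 and SPRED1 at 6 h and 18 h, and of SPRED2 on its main probe set, kept their direction and stayed past the threshold under every alternative that could be run; SPRY1 and SPRY4 have means under 7 and no value under the filter at 7. Of 305 comparisons of a member's value with its alternative, 287 kept direction and call. Several settings, such as a change of the filter or of the prior, leave the log2 difference itself unchanged. There only the call could differ, so the count says little about direction. For SPRY1, 212558_at gave -1.84 at 6 h, -1.92 at 18 h, -0.0832 between 18 h and 6 h and -0.0744 between the lines. For SPRED2, 212466_at gave -0.36 and -0.32 at 6 h and 18 h and 0.25 for the shared difference in response, and 214026_s_at gave -0.34, -0.46, -0.12 between 18 h and 6 h and 0.0082 between the lines. For SPRED1, 235074_at gave 0.13 between the lines and -0.0535 for the shared difference in response. The causes were not tested.

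Leaving out each array in turn, log2 differences ranged from -0.35 to -0.21 for SPRY1 at 6 h, -0.27 to -0.0635 for SPRY1 at 18 h and 0.0402 to 0.54 for SPRED1 between 18 h and 6 h. SPRY4 between 18 h and 6 h ranged from -0.28 to 0.13, with 0.13 without the KO/LacZ 6 h array. Counts of genes called ranged from 594 to 2530 at 6 h (2182 with all arrays), 4310 to 6563 at 18 h (6947), 1435 to 4252 between the times (4587) and 0 to 50 between the lines (337), fits with 1 residual degree of freedom. Without the filter on dim genes 1398 were called at 6 h and 58 between the lines. With the treatment term alone 976 were called at 6 h and 2727 between the times, and with the line term alone 1 between the lines. Over all probe sets 13435 were called at 18 h and 23 between the lines. Between the lines log2(value + 16) called 541, a mean of at least 7 called 723 and a trended robust prior 1196. For the shared difference in response, subtracting array medians called 3 and the trended robust prior 9, none of them a member.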

Other observations

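Relatives of the 5 members were measured too. SPRY4-IT1, a long noncoding RNA gene inside the span of SPRY4 in RefSeq's table, read 5.37, 4.68 and 4.30 log2 units on 1566968_at under vehicle, at 6 h and at 18 h in the KO/LacZ line, and 5.34, 4.46 and 4.39 in the KO/eIF4B line. The vemurafenib arrays were all below the vehicle arrays, and the log2 difference was -0.79 at 6 h and -1.01 at 18 h (limma over all probe sets, adjusted p = 0.0153 and 0.00161). Its other probe set, 1566967_at, lay between 3.78 and 4.0 and differed by -0.02 and 0.09 (limma over all probe sets, adjusted p = 0.949 and 0.581). SPRED3, the remaining SPRED gene, lay between 6.42 and 6.72 on all 6 arrays and differed by -0.23 at 6 h and -0.17 at 18 h (limma over all genes, adjusted p = 0.128 and 0.154). SPRY3 was below the filter, with a mean of 4.54, and differed by -0.04 and -0.24 (limma over all probe sets, adjusted p = 0.92 and 0.289).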
